A study of Mus musculus with 2 samples.

Results

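Membranes of a secretory vesicle and of its target are joined by SNARE proteins, which zip together into a bundle: an R-SNARE of the VAMP family on the vesicle, and a syntaxin and a SNAP-25-type Q-SNARE on the target. Synaptotagmins sense the calcium that triggers release, complexins hold the bundle ready, Munc18 (Stxbp) and Munc13 (Unc13) proteins guide its assembly, and Rab3 GTPases bring the vesicle to the membrane. In the adrenal gland this machinery releases catecholamine granules from the chromaffin cells of the medulla, while related SNAREs carry the constitutive traffic of every cell, the steroid-producing cortex included. The genes described here are the 63 whose symbols place them in the synaptotagmin, syntaxin, VAMP, SNAP, complexin, Stxbp, Unc13 and Rab3 families and which have a protein-coding transcript, of 21901 such genes in all. The rule reads symbols alone and uses no measured value.

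Total RNA, reduced in ribosomal RNA, was sequenced from whole adrenal glands of male B6CASTF1/J mice aged 2 months, an F1 hybrid of the C57BL/6J and CAST strains. The series holds 1 group with no treatment, in 2 libraries made from 300 ng of RNA each and called replicates 1 and 2. Their sample descriptions name different animals, although the library descriptions and the donor field give both the same one, so it is on the sample descriptions alone that they count as separate animals. There is no contrast of conditions, and replicate 2 against replicate 1 sets 1 library against 1 library, with no p-value.

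The gene tables held 36182740 and 34149995 expected counts over 55536 genes. Expected counts are reads that the quantifier shares among transcripts, and TPM is its level per unit of length, scaled to the same total in each library, and is the scale on which genes are compared with each other. Between the libraries the edgeR common dispersion over 16779 genes was 0.0105, which gives the log2 ratio of a gene between the libraries an SD of 0.21. The tissue label was checked against markers, and high levels were found for those of the cortex (Star at 5294 and 5939 TPM, Hsd3b1 at 3584 and 3651, Cyp11a1 at 2148 and 2298) and of chromaffin cells (Chgb at 727 and 643 TPM, Chga at 627 and 560, Npy at 443 and 364). Adipocyte markers were also high (Fabp4 at 1490 and 1068 TPM, Cfd at 1275 and 1140, Ucp1 at 629 and 303). Neuron markers were low, with Syn1 at 3.6 and 3.17 TPM, Snhg11 at 2.84 and 2.76, Rbfox3 at 2.26 and 2.79, and Chat and Slc5a7 below 0.1 TPM in both libraries. Schwann cell and sustentacular markers were low as well (S100b at 7.69 and 3.55 TPM and Mbp at 5.98 and 4.72).

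Of the 63 genes, 48 reached 1 TPM in both libraries, which is 76.2%, against 54.5% of all genes with a protein-coding transcript. At 10 TPM or more in both libraries there were 26 of 63, or 41.3%, against 25.6% of all such genes. Together the 63 genes summed to 612 TPM in replicate 1 and 652 TPM in replicate 2 (632 ± 28.4, SD, n = 2). Syntaxins held the highest family sum with 208 ± 6.58 TPM (SD, n = 2), followed by the VAMPs with 135 ± 5.9, the Snap genes with 89.5 ± 3.58, Rab3 with 67.3 ± 3.62, Stxbp with 62 ± 6.48 and the synaptotagmins with 55.4 ± 2.02 (each SD, n = 2). Complexins and Unc13 genes were the lowest, with 7.06 ± 0.0212 and 6.98 ± 0.233 TPM (SD, n = 2).

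**Figure D1:**
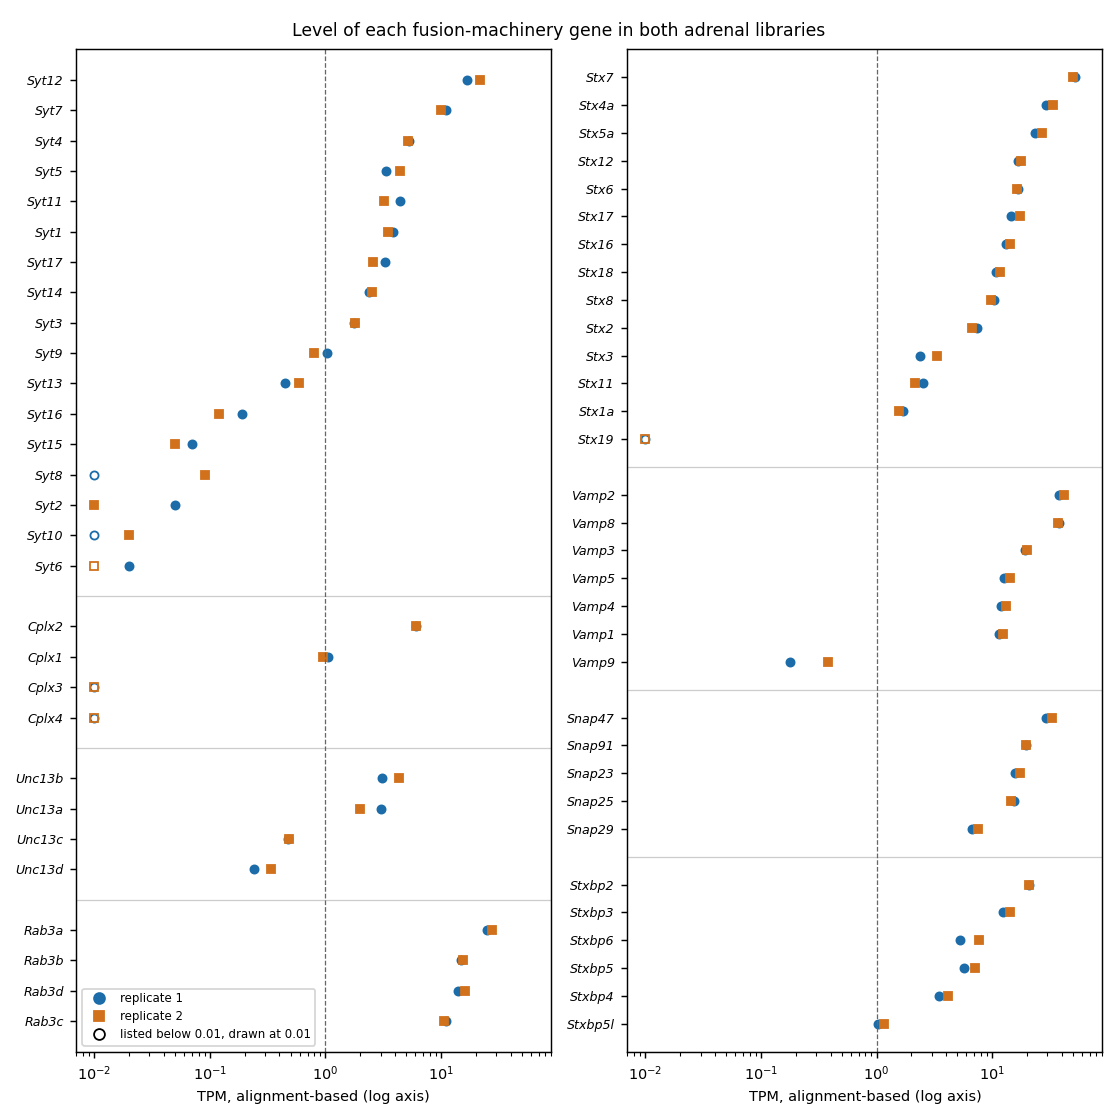
TPM of 61 of the 63 genes by the alignment-based quantifier (horizontal log axis), by family, with replicate 1 as circles and replicate 2 as squares; the dashed line marks 1 TPM. Rab3 genes and the Vamp genes other than Vamp9 lie between 10.7 and 41.7 TPM, while the synaptotagmins run from 21.9 TPM (Syt12, replicate 2) to counts of 0.

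In the order of mean TPM, Stx7 came first with 51.3 TPM, then Vamp2 with 39.7, Vamp8 with 37.5, Stx4a with 31.4 and Snap47 with 31.1. Of the 62 neighbouring pairs in that order, 47 had overlapping ranges over the libraries, Vamp2 and Vamp8 and also Stx4a and Snap47 among them. Stx7 stood apart from Vamp2 by this measure, but its place depends on the quantifier, as set out with its transcripts.

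The syntaxins divided by location. The 8 syntaxins of internal membranes summed to 161 ± 4.2 TPM (SD, n = 2) and all reached 1 TPM in both libraries, and 7 of them 10 TPM. Stx7, a late endosome syntaxin, was at 52.6 and 49.9 TPM in replicates 1 and 2. Stx5a, which serves traffic between the endoplasmic reticulum and the Golgi, was at 23.3 and 27.1 TPM. Stx12, of recycling endosomes, was at 16.8 and 17.7 TPM, and Stx6, of the trans-Golgi network, at 16.9 and 16.4. By mean alignment-based TPM these 4 genes were the highest of the internal group, but the ranges of Stx6 and Stx12 overlap that of Stx17, and by the read-based method Stx17 ranked above both Stx6 and Stx12. In both libraries all 4 were above every plasma membrane syntaxin except Stx4a. Stx17, of autophagosomes, was at 14.5 and 17.6 TPM, Stx16, of the trans-Golgi network, at 13.1 and 14.3, Stx18, of the endoplasmic reticulum, at 10.7 and 11.6, and Stx8, an endosomal partner of Stx7, at 10.4 and 9.78.

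The 7 plasma membrane syntaxins summed to 47.1 ± 2.38 TPM (SD, n = 2), of which Stx4a held 66.6% ± 2.47. Stx4a, a syntaxin of the surface of many non-neuronal cells, was at 29.5 and 33.4 TPM. Stx1a, a syntaxin of synaptic and chromaffin granule release, was at 1.7 and 1.56 TPM (124 and 107 counts). Stx4a was therefore 17.3-fold above Stx1a in replicate 1 and 21.4-fold in replicate 2. In a whole gland a lower level of such a gene can come from fewer cells of the type or from less RNA per cell, and these cannot be told apart. Stx2 was at 7.34 and 6.67 TPM, Stx3, a syntaxin of apical surfaces, at 2.4 and 3.32, and Stx11, which acts in the granules of immune cells, at 2.52 and 2.15. Stx19 held 0 expected counts in both libraries by alignment, and a count of 0 allows up to 3. By the read-based method it had 3.35 and 1.23 estimated counts. The kit keeps strand, but whether the counting used it is not given in the sources used here, and 14 of the 63 genes overlap exons of an opposite-strand gene, among them Stx4a, Rab3a, Snap47, Syt7 and Syt12. On coding transcripts alone Stx4a was at 18.9 and 21.8 TPM and Stx1a at 0.46 and 1.05, in the same order.

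All 3 exocytic R-SNAREs were above 10 TPM. Vamp2, the synaptobrevin of synaptic and chromaffin vesicles, was at 37.6 and 41.7 TPM. Vamp3, or cellubrevin, the form of recycling and constitutive vesicles, was at 19.4 and 20 TPM, so Vamp2 was 1.94-fold and 2.09-fold above it. Vamp1, the second synaptobrevin, was at 11.5 and 12.5 TPM, and on coding transcripts alone at 8.15 and 8.21. Vamp8, an R-SNARE of endosomes and of granules in exocrine and blood cells, was at 37.8 and 37.2 TPM, a range that overlaps with that of Vamp2. Vamp5 was at 12.6 and 14.3 TPM and Vamp4, of the trans-Golgi network, at 11.9 and 13.3, and Vamp9 had 4 and 8 counts. Vamp5 and Vamp8 are neighbours on chromosome 6, both on the minus strand and 4754 bases apart, and Vamp8 was 3-fold above Vamp5 in replicate 1 and 2.61-fold in replicate 2.

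Among the Q-SNAREs of the SNAP-25 family the neuronal form did not lead. Snap47, a member found in many tissues, was at 29.5 and 32.8 TPM. Snap23, the form of non-neuronal cells, was at 15.7 and 17.4 TPM, and Snap25, the form of synapses and chromaffin cells, at 15.4 and 14.7 (894 and 807 counts). Snap23 was thus 1.02-fold and 1.19-fold above Snap25 by alignment, and 1.86-fold and 2.02-fold above it by the read-based quantifier, so their ratio rests on the method. On coding transcripts alone the direction turned by alignment, with Snap23 at 13 and 10.9 TPM and Snap25 at 15.2 and 14.4, while by the read-based method Snap23 stayed higher at 41.3 and 43.8 TPM against 28.9 and 29.8. Snap29, which acts in autophagosome fusion, was at 6.67 and 7.53 TPM. Snap91 matches the symbol rule but encodes AP180, a clathrin adaptor that retrieves vesicle membrane rather than a SNARE, and was at 19.7 TPM in both libraries.

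Snap25 (ENSMUSG00000027273.13, chr2:136713453-136782428, plus strand, mm10) carries a pair of coding exons of which a transcript holds either one. In these tables Snap25-202 has the upstream exon, of the SNAP-25a form, and Snap25-201 the downstream exon, of the SNAP-25b form that prevails in adult brain. They are shown because they separate the 2 forms of a SNARE central to chromaffin release. Each is 118 bases long, they lie 196 bases apart, and 73.7% of the bases are the same. The 31 bases that differ are in capitals, read on the plus strand of mm10 from the GENCODE M21 transcript sequences, at chr2:136769743-136769860 and chr2:136770057-136770174.
Snap25-202: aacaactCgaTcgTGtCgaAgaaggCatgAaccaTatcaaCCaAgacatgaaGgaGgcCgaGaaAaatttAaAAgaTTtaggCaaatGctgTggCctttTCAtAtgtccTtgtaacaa
Snap25-201: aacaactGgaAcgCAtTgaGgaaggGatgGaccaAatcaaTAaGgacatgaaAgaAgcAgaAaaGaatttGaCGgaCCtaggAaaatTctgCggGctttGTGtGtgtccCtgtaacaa

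As whole transcripts, the forms were at nearly the same level. Snap25-202 was at 7.89 and 7.21 TPM and Snap25-201 at 7.29 and 7.24 TPM in replicates 1 and 2. The upstream form held 52% and 49.9% of their sum (50.9% ± 1.47, SD, n = 2). The read-based quantifier gave 52.8% and 53.3%, so both methods put the forms close to equal. The quantifier's own interval for Snap25-202 in replicate 1, 6.68 to 8.93 TPM, overlapped that for Snap25-201, 6.53 to 7.84 TPM.

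Other genes of the machinery also carried alternative coding sequence, and the pairs given here were chosen after their values were seen. Stx3 (chr19:11775118-11819403, minus strand) has a similar pair of exons of 111 bases each, 115 bases apart, with 61.3% of bases the same and 43 different. Stx3-202 holds the exon at chr19:11783026-11783136 and Stx3-203 the exon at chr19:11782800-11782910, and their coding ends differ too. They are printed on the minus strand of mm10, from GENCODE M21, with the differing bases in capitals, to show that the choice replaces a stretch of coding sequence by one of equal length.
Stx3-202: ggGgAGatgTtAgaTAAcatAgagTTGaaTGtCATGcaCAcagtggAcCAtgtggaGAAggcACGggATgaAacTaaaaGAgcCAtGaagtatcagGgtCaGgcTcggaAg
Stx3-203: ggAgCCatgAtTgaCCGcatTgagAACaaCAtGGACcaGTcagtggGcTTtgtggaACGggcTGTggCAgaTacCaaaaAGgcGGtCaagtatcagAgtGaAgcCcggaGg
The Stx3-202 form held 77.1% and 76.4% of the TPM of both forms by alignment. By the read-based quantifier it held 96.7% and 96.2%, so it led by both, in both libraries, with a share that depends on the method.

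The Stx2 forms differed at the end of the coding sequence. Stx2-201 ends in 78 coding bases at chr5:128987765-128987842 and Stx2-202 in 75 at chr5:128986356-128986430. Both are on the minus strand of mm10, and the stop codon is not part of them. They are shown because the coding forms part at these ends.
Stx2-201: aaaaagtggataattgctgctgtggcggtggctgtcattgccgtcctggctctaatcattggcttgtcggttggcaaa
Stx2-202: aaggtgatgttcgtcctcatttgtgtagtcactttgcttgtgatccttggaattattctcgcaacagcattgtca
Stx2-201 held 87.4% of the TPM of both Stx2 forms in replicate 1 but 70.7% in replicate 2. The shares by the read-based quantifier were 86.1% and 73.1%. Both methods thus put the share of Stx2-202 higher in replicate 2, although the alignment quantifier's intervals for Stx2-202, 0.0239 to 1.48 TPM and 0.662 to 2.41 TPM, overlapped.

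The remaining forms were read from coding segments without a clear exon pair. Vamp2-201 held 82.6% and 79.2% of the TPM of Vamp2-201 and Vamp2-202 together, and 81.7% and 78.8% by the read-based method. In Syt7 the transcripts with any of 3 segments, 624 bases in all, that the short form Syt7-201 lacks held 64.5% and 69.9% of the TPM of transcripts with an annotated coding sequence, and 63.4% and 55.2% by the read-based method. Of the 2 Snap91 forms compared, the shorter Snap91-203 held 68.7% and 67.3%, and 76.2% and 73.4% by the read-based method. For Stx16 the quantifiers were opposed: Stx16-201 held 69.1% and 69.8% by alignment and 0.23% and 0.000475% by the read-based method. The Stx16 forms differ by 15 and 12 coding bases only.

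**Figure D2:**
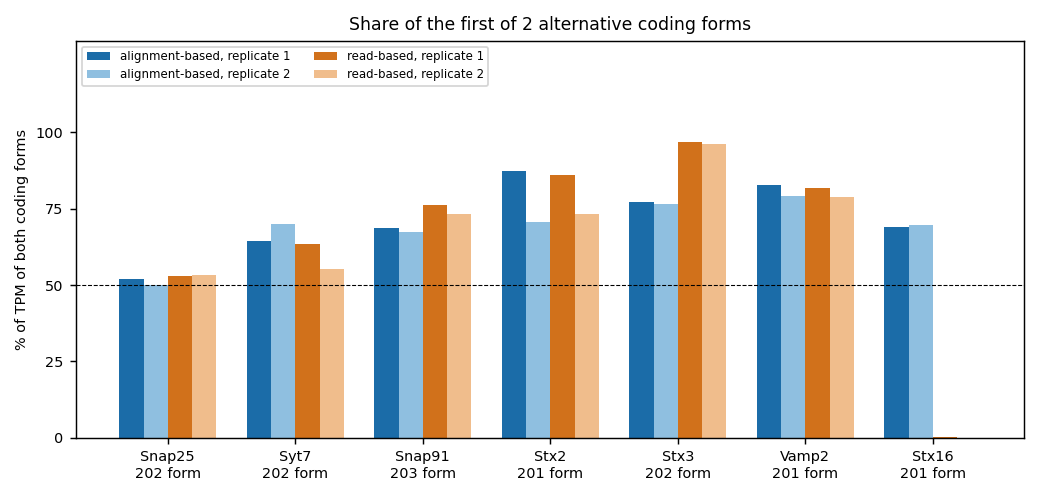
Share (%) of the first of 2 alternative coding forms in the summed TPM of both, for 7 genes, with 1 bar for each library and quantifier; the dashed line marks equal shares. Snap25 stays near 50% in all 4 bars (49.9% to 53.3%), Stx3 differs between quantifiers, and the read-based bars of Stx16 are at 0.23% or below.

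Calcium-binding synaptotagmins, of which 8 were in the set, summed to 20.8 ± 0.431 TPM (SD, n = 2), and the 9 others to 34.6 ± 2.45. Syt7, the high-affinity calcium sensor of chromaffin granules, led the calcium-binding group at 11.1 and 10 TPM, 50.6% ± 2.62 of its sum. Syt1, the fast sensor of synaptic and chromaffin vesicles, was at 3.81 and 3.47 TPM (666 and 583 counts), and Syt7 was 2.91-fold and 2.88-fold above it. Syt5 was at 3.37 and 4.42 TPM, a range that includes those of Syt1, while Syt3 was at 1.78 and 1.82 and Syt9 at 1.03 and 0.79. Syt2, the sensor of fast synapses, had 12 and 2 counts, Syt6 had 2 and 0, and Syt10 had 0 and 1.

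Syt12, which lacks the calcium-binding residues, was the highest synaptotagmin at 16.8 and 21.9 TPM. It was 4.4-fold above Syt1 in replicate 1 and 6.3-fold in replicate 2. Its counts differed less than its TPM, 2256 and 2345, and its non-coding transcripts held 1.55% of its TPM in replicate 1 and 17.2% in replicate 2. Syt4 and Syt11, a related pair that do not act as calcium sensors in mammals, were at 5.27 and 5.21 TPM and at 4.38 and 3.24 TPM. Syt17 was at 3.31 and 2.6 TPM, Syt14 at 2.39 and 2.55 and Syt13 at 0.45 and 0.59. Syt16 had 24 and 18 counts, Syt15 had 10 and 6, and Syt8 had 0 and 2.

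Most of the complexin level came from 1 gene. Cplx2 was at 6.02 and 6.1 TPM, 85.8% ± 1.06 of the family (SD, n = 2), and Cplx1, the other complexin of brain, at 1.06 and 0.95 TPM (86 and 72 counts). Cplx2 was 5.68-fold and 6.42-fold above Cplx1. Cplx3 and Cplx4, known from the retina, held 0 expected counts in both libraries.

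The Munc18 proteins clasp syntaxins. Stxbp2, or Munc18-2, known from granule release in blood and epithelial cells, led at 20.9 and 21 TPM. Stxbp3, or Munc18-3, a partner of syntaxin 4, was at 12.5 and 14.4 TPM. The other syntaxin-binding proteins were lower: Stxbp6 (amisyn) at 5.32 and 7.65 TPM, Stxbp5 (tomosyn, which blocks SNARE assembly) at 5.73 and 7.06, Stxbp4 at 3.46 and 4.19, and Stxbp5l at 1.03 and 1.17. All 7 Stxbp genes were higher in TPM in replicate 2, Stxbp2 by the least, on a scale where the median log2 ratio of all compared genes was 0.086. By scaled counts 6 of the 7 were higher, with 2 intervals above 0. Of all 11763 compared genes, 5701 were higher by this measure, and 18.5% had an interval above 0. With 7 genes and 1 library on each side, this is not read as a trait of the family.

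Unc13 genes, whose proteins open syntaxin for priming, were low. Unc13b was at 3.08 and 4.34 TPM (716 and 782 counts) and Unc13a, the main form of synapses, at 3.03 and 1.99 (517 and 396 counts). Unc13b was 1.02-fold above Unc13a in replicate 1 and 2.18-fold in replicate 2. The read-based folds were 1.13 and 1.82. On coding transcripts alone Unc13b was at 2.64 and 2.96 TPM and Unc13a at 1.68 and 1.27, so the order was the same in both libraries while its size differed between them. Exons of Unc13a overlap those of Colgalt1 on the other strand. Unc13c was at 0.47 and 0.48 TPM, and Unc13d, known from cytotoxic granules, at 0.24 and 0.34 (25 and 43 counts).

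The Rab3 family was the only one of the 8 with all its genes above 10 TPM in both libraries. Rab3a, the main form of neurons and chromaffin cells, was at 24.8 and 27.8 TPM, 39% ± 1.08 of the family. Rab3b followed at 14.9 and 15.4 TPM, Rab3d, known from exocrine granules, at 14 and 16, and Rab3c at 11.1 and 10.7. The ranges of Rab3b and Rab3d overlap, and that of Rab3c lies below both. On coding transcripts alone Rab3d was at 9.14 and 10.8 TPM and Rab3c at 9.86 and 9.58 by alignment, so that the family no longer reached 10 TPM throughout. Transcripts without a coding biotype held 34.6% and 32.3% of Rab3d by alignment but 0% by the read-based method, so the lower coding level of Rab3d rests on the method.

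Between the libraries, 50 of the 63 genes averaged at least 100 counts and were compared as log2 of replicate 2 over replicate 1 after TMM scaling. None was over 1.5-fold apart, against 2.43% of the 11763 genes with a protein-coding transcript at that depth. Their median ratio was 0.02, with a range of -0.38 to 0.35, beside -0.006 for all 11763 genes. The 95% Clopper-Pearson interval of the ratio, which covers counting error only, lay below 0 for 9 of 50 genes, or 18%, against 20.2% of all genes. It lay above 0 for 5 of 50, or 10%, against 18.5%. These shares are near or below those of all genes, and the ratios of all 50 lie within 2 SDs (0.21 each) of 0.

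Among the 9 genes lower in replicate 2 beyond counting error were Unc13a at -0.38 (interval -0.57 to -0.19), Syt17 at -0.38 (-0.63 to -0.14), Syt11 at -0.28 (-0.45 to -0.11), Stx6 at -0.22, Syt1 at -0.18 (-0.35 to -0.02), Snap91 at -0.16, Snap25 at -0.14 (-0.28 to -0.0014) and Stx7 at -0.09. Among the 5 higher in replicate 2 were Stx3 at 0.35 (0.10 to 0.59), Stx16 at 0.16, Stxbp5 at 0.14 and Stx17 at 0.12. Of the named genes of synaptic and chromaffin release, Syt1, Unc13a and Snap25 were thus lower. The intervals of Vamp2 (0.03), Vamp1 (0.06), Rab3a (0.07), Syt7 (-0.06), Cplx2 (-0.08) and Stx1a (-0.20) included 0. Cplx1 averaged under 100 counts and was not compared.

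**Figure D3:**
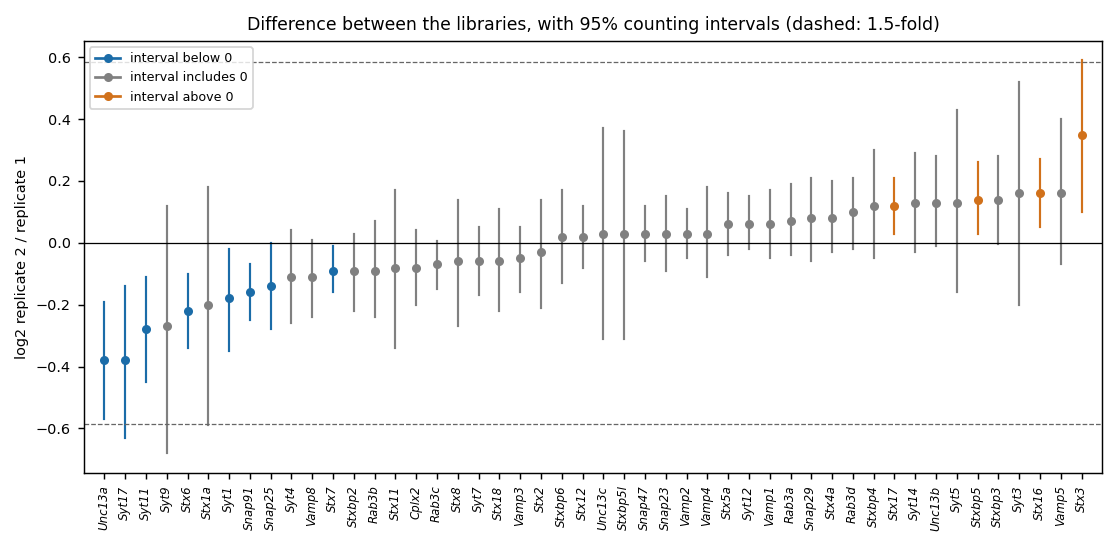
Log2 ratio of replicate 2 over replicate 1 (vertical axis) for 48 of the 50 genes that averaged at least 100 counts, in rising order; points are ratios, bars the 95% counting intervals and dashed lines 1.5-fold. All points lie between -0.38 and 0.35, with 8 drawn intervals below 0 and 4 above.

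Marker lists of cells of the gland, and of fat, liver, kidney and pancreas, were compared between the same libraries. All 15 chromaffin markers were lower in replicate 2, with a median of -0.29 and 12 of 15 intervals below 0, and their summed level was 2955 TPM in replicate 1 and 2573 in replicate 2. Of 12 cortex markers, 10 were higher, with a median of 0.11 and sums of 16212 and 18058 TPM. All 7 stroma and smooth muscle markers deep enough to compare were lower, with 7 of 7 intervals below 0, a median of -0.35 and sums over the 8 markers of 285 and 235 TPM (Dcn at 95 and 80 TPM, Tagln at 77.6 and 67.2, Col3a1 at 45.3 and 31.2). The 9 liver, kidney and pancreas markers summed to 28.5 and 38.3 TPM, of which Cela1 held 25 and 26.6 TPM. The other pancreas markers were near 0, with Prss2 at 0.14 and 0 TPM and Ins2 at 0 in both libraries. Alb was at 0.88 and 5.06 TPM (66 and 347 counts, a ratio of 2.39) and Kap at 1.27 and 4.09 (30 and 90 counts). Apoa1 was at 0.49 and 1.45 TPM, and Slc34a1, Ttr and Umod were below 1 TPM in both libraries. Endothelium markers summed to 243 and 267 TPM and macrophage and mast cell markers to 98.2 and 101. The 9 adipocyte markers were all lower, with a median of -0.58 and sums of 4664 and 3303 TPM. Of 12 neuron markers 4 were deep enough to compare, with a median of -0.29 and summed levels of the 12 at 13.3 and 13 TPM, and the 10 Schwann and sustentacular markers summed to 19.1 and 14 TPM. The part of these cell types in the ratios of the fusion genes was not tested.

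**Figure D4:**
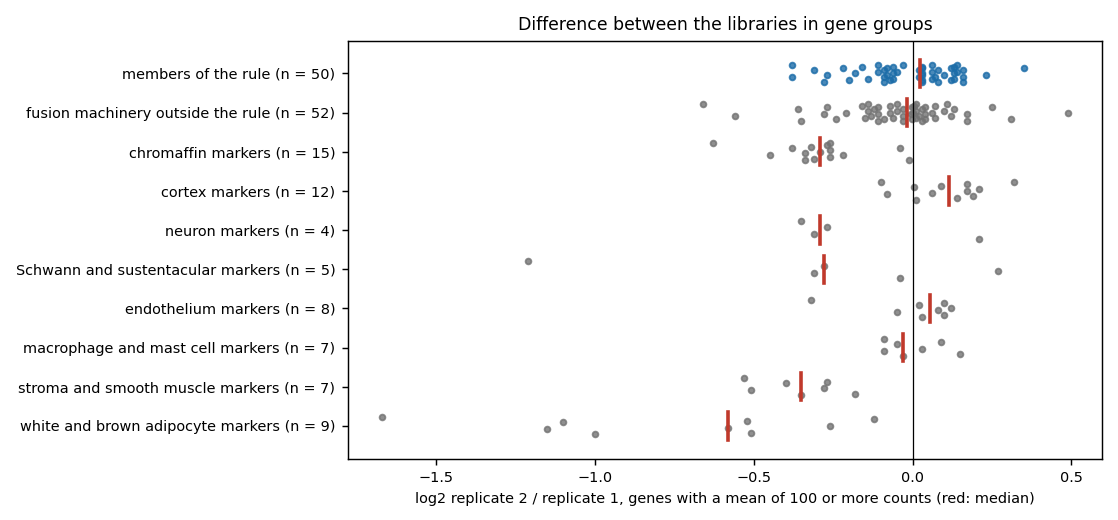
Log2 ratio of replicate 2 over replicate 1 (horizontal axis) for genes that averaged at least 100 counts, 1 row for each gene group, with a red line at the group's median. The fusion genes center near 0 (median 0.02), the chromaffin markers lie below 0 (median -0.29) and the adipocyte markers below 0 (median -0.58).

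Fusion machinery outside these families was taken from a list of 64 genes: factors that take SNARE bundles apart, further SNAREs, granule-tethering Rab effectors, vesicle membrane proteins and the exocyst. In both libraries 52 of 64 reached 1 TPM and 27 reached 10 TPM, beside 54.5% and 25.6% of all genes with a protein-coding transcript. The highest were Use1, a SNARE of the endoplasmic reticulum, at 63.2 and 68.2 TPM, Nsf, the ATPase that takes SNARE bundles apart, at 52 and 56.4, Vti1b at 42.5 and 46.2, and Napa, the adaptor of Nsf, at 43 and 42.3. After them came Sypl at 31.6 and 36.4 TPM, Sec22b at 28.6 and 32.2, Gosr2 at 29.3 and 30.4, and Rims4 at 25.9 and 29. In this list 52 genes were compared between the libraries, with a median ratio of -0.01, 29 lower and 23 higher in replicate 2. The intervals of 11 lay below 0 and those of 7 above, and 1 gene was over 1.5-fold apart, the vesicle protein gene Synpr at -0.66 (210 and 132 counts). Of all 11763 compared genes, 20.2% had an interval below 0, 18.5% had one above 0 and 2.43% were over 1.5-fold apart.

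The same libraries were also quantified by the authors from reads and a transcript index, per the file notes. Read-based TPM was higher for most of the 13107 coding genes compared, with a median log2 difference of 0.84 in replicate 1 and 0.92 in replicate 2. All coding genes summed to 358363 and 352138 TPM by alignment and to 691956 and 717954 by the read-based method. Coding genes thus held a larger share of the TPM total by the read-based method. The fusion genes moved with them, from 612 and 652 TPM to 1184 and 1355. With that median taken out, 0 of 52 fusion genes were over 2-fold apart the same way in both libraries, against 1.75% of all genes. The largest differences among genes above 1 TPM in both tables were Snap23 at 0.94 and 0.88, Snap47 at 0.60 and 0.68, and Stx7 at -0.59 and -0.50, all on the log2 scale. Unc13d, below 1 TPM by alignment, was at 1.09 and 2.18 TPM by the read-based method, a centred difference of 0.96 and 1.45. The order of levels moved with these differences: by the read-based method Snap47 came first, followed by Vamp2, Vamp8, Stx4a and then Stx7.

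**Figure D5:**
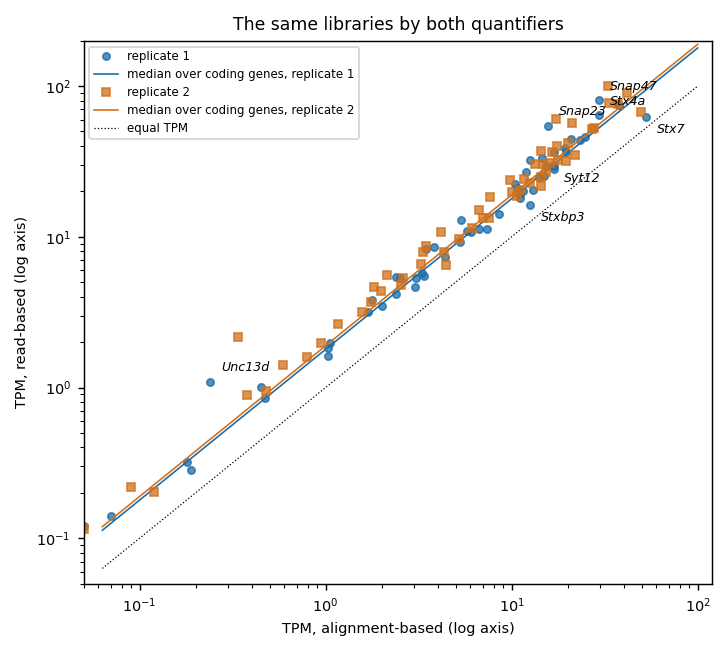
Read-based against alignment-based TPM for the 63 genes in each library (both axes log; genes at 0 by either method or below 0.05 are not drawn), with solid lines at the median ratio over all coding genes and a dotted line at equal TPM. Most genes follow the median lines, Snap23, Snap47 and Unc13d lie above them and Stx7 and Stxbp3 below.

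The quantifiers also differed in how they divided genes into transcripts. In Stx7, 40.4% of the alignment-based TPM sat on transcripts without a coding biotype, nearly all on Stx7-203, a retained-intron transcript of 362 bases at 21.9 and 18 TPM. By the read-based method such transcripts held 3.28% of Stx7. On coding transcripts alone Vamp8 came first with 37.5 TPM, then Vamp2 with 33.9, Snap47 with 31.1 and Stx7 with 30.5. Stx8 was led by both methods by Stx8-204, a processed transcript of 552 bases with 73.9% and 66.5% of its TPM, which left 2.49 and 2.7 TPM on coding transcripts. For Stx1a the coding transcripts held 0.46 and 1.05 TPM, below 1 TPM in replicate 1. More than 25% of the level was on non-coding biotypes in 11 of 49 fusion genes, or 22.4%, against 23.9% of 12103 coding genes at 1 TPM or more.

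The leading transcript, with the highest mean TPM, was compared in 46 fusion genes with more than 1 transcript. It was the same by both methods in 36 of 46, or 78.3%, against 76.1% of all such genes. It held under 60% of the gene's TPM in 24 of 46, or 52.2%, against 41.5%. These 24 genes ranged from 32% in Unc13a, 34.4% in Vamp1 and 35.4% in Stx5a up to 59% in Stxbp6, with Stx4a at 40.4%, Syt7 at 46.5%, Stx1a at 46% and Stxbp2 at 48.7%. It had no coding biotype in 2 of 46, or 4.35%, against 6.8%: Stx8 and Unc13a, whose retained-intron transcript Unc13a-206 held 32.6% and 31.2%. In Unc13a the read-based method was led by the coding Unc13a-208 instead.

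The other 9 genes with different leaders were Rab3d, Snap23, Stx16, Stx17, Stx5a, Stx6, Stxbp6, Syt17 and Vamp4. In Rab3d, Snap23, Stx17, Stx6, Stxbp6 and Vamp4 the read-based leader was the shorter transcript. Snap23-202 of 2723 bases held 52.1% and 50.7% by alignment, and Snap23-206 of 751 bases held 48.5% on average by the read-based method. In Vamp4 the read-based leader, Vamp4-206, was listed at 0% by alignment. In Stxbp6 the alignment-based leader, Stxbp6-201, went from 77.1% in replicate 1 to 46.5% in replicate 2. By the read-based method it held 54.2% and 41.6%. In Syt11 the leader Syt11-201 went from 51.1% to 93.5% by alignment but held 54.2% and 58.9% by the read-based method. The alignment quantifier's intervals overlapped between the libraries. They were 3.33 to 4.22 and 2.76 to 3.97 TPM for Stxbp6-201, and 1.5 to 2.77 and 1.8 to 3.19 TPM for Syt11-201. These intervals are for the TPM of the leaders and do not cover their shares, which also depend on the other transcripts. Among those, Stxbp6-203 was at 0 and 1.7 TPM and Syt11-205 at 0.83 and 0 TPM by alignment. Whether the shares differ was not tested, and with 1 library on each side the shifts are not taken as differences between the libraries.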

How the data were processed

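Per the file headers, the authors deposited for each library a gene table and a transcript table with expected counts and TPM, called alignment-based here, and a read-based transcript table with estimated counts and TPM, summed per gene here. The build mm10 (GRCm38) and GENCODE M21 come from the file notes. Names and versions of aligner and quantifiers are not given in the sources used here. Whether reads of CAST alleles were assigned equally was not tested. Non-gene rows (ERCC spike-ins, transfer RNAs) took 0.904% and 0.885% of counts and were left out.

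No test was possible with 1 group. Expected counts were rounded for TMM and the common dispersion (edgeR 4.0.16) over genes that reached 10 counts in each library. The libraries differed beyond sampling noise (chi-square of 33.1 per gene), so they were not taken as a repeat deposit of 1 library. This does not show that they come from separate animals. Ratios used counts plus 0.5 over TMM-scaled totals at a mean of 100 or more counts. Quantifiers were compared as log2(TPM + 0.1). Transcript shares were computed from TPM, and sequences are from GENCODE M21. The labels name no molecular identifiers, so reads are not independent molecules and intervals cover counting error only. On simulated data for replicate 2 over replicate 1 with 11761 genes, 96.4% of 196 genes changed 2-fold passed 1.5-fold. Of the unchanged genes 0.899% did. The simulated dispersion was set to 0.01, near that of the libraries, and was recovered as 0.0135. This checks the calculation only, since a 2-fold change at that dispersion nearly always passes. SciPy 1.17.1 gave the intervals.

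Any of the 63 genes may be named, but values of some single genes are not reported here; family sums and counts include them. Values by library are given for the 3 highest of each family, for members central to chromaffin and synaptic release, and for those apart between libraries or quantifiers or in their leading transcript. From the list outside the families the 8 highest and any over 1.5-fold are named, and from marker lists up to the 3 highest. Low members are also named from the neuron list and from the liver, kidney and pancreas list. The symbol rule uses no values, but the families, lists and roles were chosen with earlier results of these data known. Alternatives were DESeq2 1.42.0 size factors and other scalings, minimums, priors and thresholds, each library alone, and the read-based tables.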

Additional observations from a re-analysis of the deposited data

How the results depend on the processing

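The summed level of the fusion genes, 632 TPM, was 1270 by the read-based method, 1779 with TPM rescaled over coding genes, and 533 on coding transcripts alone, an alternative chosen after seeing the data; the single libraries gave 612 to 652. The number of genes over 1.5-fold apart between libraries, 0, became 1 with the ratio of TPM (Unc13a), 1 at a minimum of 20 counts (Unc13d) and 7 with no minimum (Syt2, Syt6, Syt8, Syt10, Syt15, Unc13d and Vamp9, each at a mean of 34 counts or fewer). The number over 2-fold apart between quantifiers, 0, was 17 without centring, 1 with no minimum (Unc13d) and 0 to 1 in single libraries (Unc13d in replicate 2). At a minimum of 5 TPM, 23 of 31 genes had the same leading transcript. The count of genes at 1 TPM stayed between 46 and 52 over the quantifier, scale and library alternatives and was 34 at 5 TPM, and the median ratio stayed between 0.014 and 0.10. With total counts the median of all genes was 0.070, and with the ratio of TPM 0.086, so the ratios of the fusion genes shift with it. No paired analysis was possible because there is only 1 group. With 1 library on each side, differences have no replicate check, and genes under 100 counts were not compared.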
